A study of Homo sapiens with 24 samples.

Results

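The response of 6 genes to the class I HDAC inhibitor mocetinostat was followed because it differed between ID3-KO and WT cells: LMCD1, ADRA1B, UNC13D, TGM2, CCDC147 and RPLP0P2. These are 6 of the 57820 genes counted, matched by gene name. LMCD1, ADRA1B and UNC13D were chosen by their genotype by treatment interaction in U2OS cells, that is, the change with drug in ID3-KO cells minus the change in WT cells. TGM2, CCDC147 and RPLP0P2 count here as chosen by the same quantity in AID-DIvA cells, where their interaction p was the smaller one, an assignment that is inferred. For each gene the values of the set that chose it are a description, and a p is given only in the other set. If the U2OS interaction also entered the choice of TGM2, CCDC147 or RPLP0P2, their U2OS tests are not independent of it.

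The libraries fall into 8 groups of 3 biological replicates. AID-DIvA cells are U2OS osteosarcoma cells that carry the AsiSI restriction enzyme, which cuts DNA when switched on by 4-hydroxytamoxifen. WT and ID3-KO AID-DIvA cells were either untreated or given mocetinostat for 24 h and then kept in drug-free medium for another 24 h, and are called recovered. WT and ID3-KO U2OS cells were either untreated or given the drug for 24 h and collected at once, and are called treated. That the U2OS libraries precede recovery was inferred from their description and the methods, and the library names of these samples also carry a DIvA prefix. All drug libraries of AID-DIvA cells follow recovery and all those of U2OS cells precede it, so cell line and stage cannot be told apart. Titles and treatment labels disagree for the AID-DIvA samples, which were grouped by title. The number of knockout clones and the mocetinostat dose of this experiment are not given in the sources used here.

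HDAC inhibitors raise histone acetylation and alter the transcription of many genes in both directions. ID3 is a helix-loop-helix protein without a DNA-binding region. It binds E proteins and keeps them from E-boxes, the sites with the letters CANNTG. The 6 genes have unlike functions. LMCD1 encodes a LIM domain cofactor that holds GATA6 off DNA, and ADRA1B encodes the alpha-1B adrenergic receptor, which signals through Gq to phospholipase C. UNC13D encodes Munc13-4, which primes secretory granules for release in cytotoxic lymphocytes. TGM2 encodes tissue transglutaminase, an enzyme that crosslinks proteins and also binds GTP. CCDC147, now named CFAP58, encodes a protein of cilia and flagella. RPLP0P2 is a transcribed pseudogene of RPLP0, the P0 protein of the ribosomal stalk.

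In GRCh37 coordinates of the deposited counts, LMCD1 (ENSG00000071282.7) lies at chr3:8543393-8609805 on the plus strand and ADRA1B (ENSG00000170214.3) at chr5:159343790-159399551 on the plus strand. UNC13D (ENSG00000092929.7) lies at chr17:73823306-73840798 and TGM2 (ENSG00000198959.7) at chr20:36756863-36794980, both on the minus strand. CCDC147 (ENSG00000120051.10) lies at chr10:106113522-106214848 and RPLP0P2 (ENSG00000243742.1) at chr11:61382508-61406921, both on the plus strand. Each value counts fragments over all exons of a gene.

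The promoters bear on the E-box, the site that ID3 keeps E proteins from. RefSeq windows of GRCh38.p14, 300 bases from 250 before a start to 50 after it, were held for 3 of the 6 genes: LMCD1, ADRA1B and CCDC147, the last with 2 starts. CANNTG, which reads the same on both strands, was found once before LMCD1 as CAGCTG, 17 bases before the start, and once before the second CCDC147 start as CAGGTG, 155 bases before it. The windows of ADRA1B and of the first CCDC147 start held no match. The motif was thus in 2 of the 4 windows, and 68.7% of all 35116 windows of this length held it. The 250 bases before both starts with a match are shown because they differ in which E-box they carry, with the match in capitals. They lie at chr3:8501573-8501822 and chr10:104353583-104353832 of GRCh38.p14, plus strand.
LMCD1: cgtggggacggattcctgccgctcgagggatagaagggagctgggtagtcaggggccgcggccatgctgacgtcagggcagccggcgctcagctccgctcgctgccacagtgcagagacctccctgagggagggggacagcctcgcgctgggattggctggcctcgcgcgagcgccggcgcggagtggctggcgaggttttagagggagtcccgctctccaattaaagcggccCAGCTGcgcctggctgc
CCDC147, second start: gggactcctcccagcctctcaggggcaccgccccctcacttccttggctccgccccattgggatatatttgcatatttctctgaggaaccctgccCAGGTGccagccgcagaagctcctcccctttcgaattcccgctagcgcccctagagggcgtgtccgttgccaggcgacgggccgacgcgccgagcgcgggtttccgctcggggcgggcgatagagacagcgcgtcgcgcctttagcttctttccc

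RPLP0P2 was compared with its parent because both could share reads. In the GRCh37 reference annotation one transcript of RPLP0P2 is a copy of the RPLP0 message of 961 bases, at chr11:61404152-61405112, inside an exon of longer transcripts. Its alignment to RPLP0 was identical in 900 of 961 columns (93.7%), and the longest identical run was 53 bases. None of the 862 windows of 100 bases in the copy, the length of 1 read, occurred unchanged in the RPLP0 transcript. A further 3099 of the 4060 exon bases of RPLP0P2 lie outside the copy.

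Total counts ran from 37878751 to 76906266 in the 12 AID-DIvA libraries and from 46285533 to 70692114 in the 12 U2OS libraries. CPM here means a count relative to the library size, with TMM factors set over all 24 libraries together. The lowest count of any of the 6 genes in any library was 160, for CCDC147 in an untreated WT library. ID3 RNA was still counted in the knockout: it stood at 48.7 to 52.3 CPM in untreated WT and 32.6 to 38.8 CPM in untreated ID3-KO AID-DIvA cells, and at 51.6 to 79.7 and 29.1 to 32.1 CPM in untreated U2OS cells. The U2OS WT untreated replicate 1 stood apart there, with ID3 at 79.7 CPM. With drug and recovery ID3 stood at 103 to 128 CPM in WT and 61.5 to 67.1 CPM in ID3-KO AID-DIvA cells, log2 changes of 1.24 ± 0.076 and 0.90 ± 0.086 (edgeR, adjusted p = 9.1e-08 and 3.8e-05, the second under the fold threshold), so the recovered knockout lay above untreated WT. In treated U2OS cells it stood at 77.9 to 88.9 CPM in WT and 30.3 to 40.6 CPM in ID3-KO cells. The paper checked the knockout by Western blot of ID3 in both cell lines. The RNA counts here do not measure that protein. The osteosarcoma identity was checked with 8 bone markers, of which COL1A1 was at 830 to 2498 CPM and SPARC at 878 to 1532 CPM in every library, whereas IBSP, BGLAP and COL1A2 stayed below 1.4 CPM. Summed, the 8 markers were at 3024–4101 CPM in untreated and 1982–2626 CPM in treated U2OS libraries, and at 2711–3268 and 1786–2368 CPM in untreated and recovered AID-DIvA libraries, a sum made up mostly of COL1A1 and SPARC, which passed no fold threshold with drug. The other markers did not move together: SPP1 and IBSP rose in treated U2OS cells of both genotypes (log2 1.02 and 4.45 in WT, 1.72 and 3.84 in ID3-KO), COL1A2 rose in ID3-KO by 1.01 and RUNX2 fell by 1.53 in WT cells. After recovery the log2 changes of the 7 bone markers tested lay within the fold threshold. The 6 blood markers summed to at most 0.844 CPM in AID-DIvA libraries and, in U2OS, to 0.428–0.77 CPM untreated and 1.39–1.998 CPM treated, with CD3E at 0 in 17 of the 24 libraries. Of 4 epithelial markers, KRT8 reached 306 CPM and CDH1 stayed at or below 1.98 CPM. The part of these shifts in the results was not tested.

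**Figure D1:**
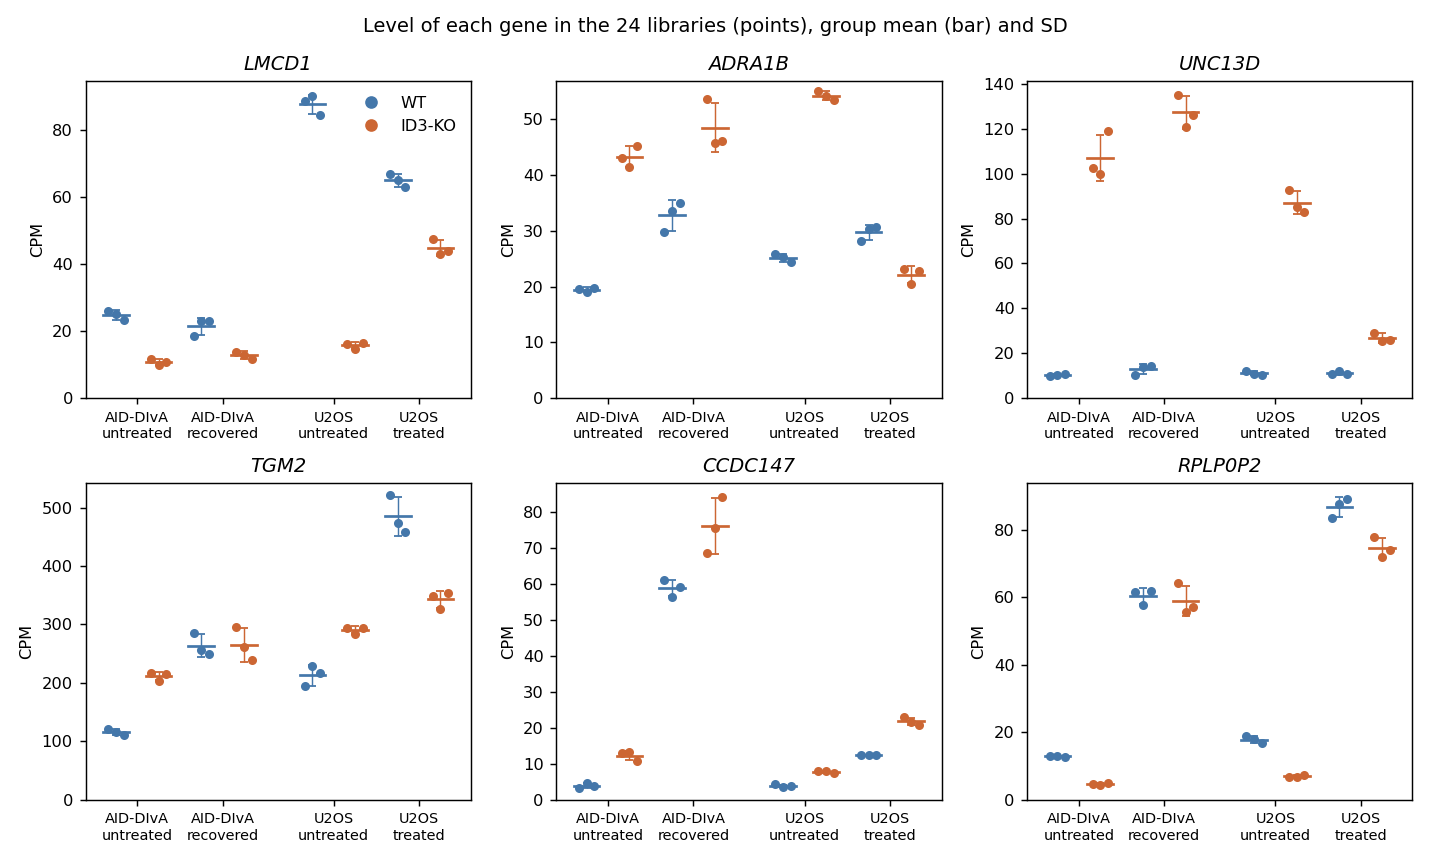
CPM on a linear axis from 0 for each of the 6 genes, in WT (blue) and ID3-KO (orange) libraries of the 4 conditions; points are libraries, long bars are means of 3 and error bars are SD. UNC13D is high in every knockout group except treated U2OS cells, and RPLP0P2 is low in all untreated groups.

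LMCD1 was the gene with the smallest interaction p in U2OS cells, ranking 1 of 22647 genes. Its level in the 3 untreated WT U2OS libraries was 88.6, 90.0 and 84.5 CPM, and in the treated ones 66.9, 65.0 and 62.8 CPM. In ID3-KO U2OS cells it was 16.3, 14.8 and 16.5 CPM untreated and 47.6, 43.0 and 43.995 CPM treated. WT libraries were thus lower with drug and knockout libraries higher, without overlap in either genotype, and the knockout stayed below WT at both stages. The log2 fold change with drug was -0.44 ± 0.071 (SE) in WT and 1.51 ± 0.059 in ID3-KO cells, a description because this contrast chose the gene.

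In AID-DIvA cells LMCD1 was measured at a lower level. Untreated WT libraries had 26.0, 25.1 and 23.2 CPM and recovered ones 18.5, 22.9 and 23.0 CPM. ID3-KO libraries had 11.7, 10.003 and 10.7 CPM untreated and 13.9, 12.9 and 11.5 CPM recovered. Untreated knockout cells were lower than WT by a log2 difference of -1.21 ± 0.071 (edgeR quasi-likelihood test, adjusted p = 2.0e-09). The change with drug and recovery did not pass in WT (log2 -0.19 ± 0.083, adjusted p = 0.083) or in ID3-KO cells (0.24 ± 0.093, adjusted p = 0.064). The interaction had the same sign as in U2OS cells but was 0.43 ± 0.13 and did not pass (edgeR, adjusted p = 0.17), except without a filter on low counts, where the adjusted p was 0.024. Whether the interaction differed between both sets was not tested.

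ADRA1B, the adrenergic receptor, showed the opposite direction in U2OS cells. WT libraries had 25.8, 25.3 and 24.3 CPM untreated and 28.2, 30.4 and 30.6 CPM treated. ID3-KO libraries had 55.1, 54.1 and 53.4 CPM untreated and 23.2, 20.4 and 22.8 CPM treated. The knockout stood 2.16-fold above WT before the drug and 1.34-fold below it afterwards, with no overlap at either stage. The log2 fold changes were 0.24 ± 0.073 in WT and -1.29 ± 0.054 in ID3-KO cells.

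In AID-DIvA cells ADRA1B was again higher in the untreated knockout. WT libraries had 19.6, 18.9 and 19.7 CPM untreated and 29.7, 33.6 and 35.0 CPM recovered. ID3-KO libraries had 43.2, 41.5 and 45.3 CPM untreated and 53.7, 45.8 and 46.1 CPM recovered. The untreated difference was 1.14 ± 0.056 on the log2 scale (edgeR, adjusted p = 3.0e-10). After recovery WT cells were 0.78 ± 0.067 higher than untreated ones (adjusted p = 7.5e-07, under the log2 threshold of 1), and ID3-KO cells 0.16 ± 0.077 (adjusted p = 0.12). The interaction of -0.61 ± 0.11 passed the test (edgeR, adjusted p = 0.0078). ADRA1B did not fall in the recovered knockout, where all 3 libraries lay above the untreated ones.

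UNC13D had the widest gap between genotypes of the 6 genes. In WT cells its level lay between 10.04 and 14.2 CPM in all 12 libraries of both sets. In untreated ID3-KO U2OS cells it was 92.9, 85.3 and 83.0 CPM and in treated ones 29.2, 25.2 and 25.7 CPM, so the drug-treated knockout lay far below the untreated one and still above WT. The log2 fold change there was -1.70 ± 0.058, against -0.02 ± 0.10 in WT cells.

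In AID-DIvA knockout cells the level was 103, 99.9 and 119 CPM untreated and 135, 121 and 126 CPM recovered. WT libraries had 10.04, 10.3 and 10.6 CPM untreated and 10.2, 14.0 and 14.2 CPM recovered. The untreated knockout was 10.4-fold above WT in mean CPM, a fitted log2 difference of 3.37 ± 0.076 (edgeR, adjusted p = 1.0e-13). With drug and recovery the log2 change was 0.33 ± 0.11 in WT (adjusted p = 0.026) and 0.25 ± 0.082 in ID3-KO cells (adjusted p = 0.037), both under the fold threshold. The interaction was -0.08 ± 0.15 (edgeR, adjusted p = 0.87), and the knockout libraries lay above, not below, the untreated ones after recovery.

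TGM2, the transglutaminase, was per length the most abundant of the 6 genes in untreated WT AID-DIvA cells. Its mean level there, in the authors' TPM, was 52.0 ± 0.88 (SD), against 34.9 ± 1.29 for ADRA1B, 29.9 ± 0.94 for LMCD1, 10.3 ± 0.15 for RPLP0P2, 4.14 ± 0.22 for UNC13D and 3.43 ± 0.62 for CCDC147. In CPM, AID-DIvA WT libraries had 122, 116 and 111 untreated and 286, 255 and 249.03 recovered. ID3-KO libraries had 217, 204 and 216 CPM untreated and 296, 262 and 238 CPM recovered. The genotypes did not overlap before the drug and overlapped after recovery, at means of 264 ± 19.8 and 265 ± 29.0 CPM (SD, n = 3 each). The log2 fold changes were 1.20 ± 0.054 in WT and 0.32 ± 0.075 in ID3-KO cells.

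In U2OS cells, taken here as the set that did not choose it, the order of the genotypes was reversed for TGM2 with drug. WT libraries had 194, 229 and 216 CPM untreated and 522, 474 and 459 CPM treated. ID3-KO libraries had 294, 284 and 294 CPM untreated and 349, 327 and 354 CPM treated. TGM2 rose in WT cells by 1.19 ± 0.091 on the log2 scale (edgeR, adjusted p = 3.7e-05). In the knockout the difference was 0.24 ± 0.044 (adjusted p = 3.7e-05, under the fold threshold). The knockout was above WT before the drug (0.44 ± 0.081, adjusted p = 0.010, also under it) and below WT with drug. The interaction was -0.94 ± 0.10 (edgeR, adjusted p = 1.2e-04).

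CCDC147, the gene of cilia and flagella, had the largest response in AID-DIvA WT cells of the 6. WT libraries had 3.29, 4.60 and 3.79 CPM untreated and 61.1, 56.5 and 59.2 CPM recovered, a 15.1-fold ratio of means. ID3-KO libraries had 12.9, 13.2 and 10.8 CPM untreated and 68.5, 75.6 and 84.1 CPM recovered, a 6.20-fold ratio. The knockout lay above WT at both stages, with the gap down from 3.15-fold to 1.29-fold. The fitted log2 fold changes were 3.93 ± 0.088 and 2.63 ± 0.11.

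In U2OS cells CCDC147 rose in both genotypes. WT libraries had 4.25, 3.49 and 3.77 CPM untreated and 12.5, 12.3 and 12.4 CPM treated, a log2 fold change of 1.69 ± 0.10 (edgeR, adjusted p = 1.2e-05). ID3-KO libraries had 7.92, 7.98 and 7.52 CPM untreated and 22.9, 21.7 and 20.8 CPM treated, a log2 fold change of 1.48 ± 0.065 (edgeR, adjusted p = 3.0e-15). Untreated knockout cells were higher by 1.02 ± 0.11 (adjusted p = 0.0010), a call that was lost to the fold threshold without either of 2 libraries (0.95 without WT replicate 2 and 0.99968 without ID3-KO replicate 2). The interaction of -0.20 ± 0.11 did not pass (edgeR, adjusted p = 0.49).

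RPLP0P2, the pseudogene, was the gene with the smallest interaction p in AID-DIvA cells, ranking 1 of 21265. WT libraries had 13.1, 12.8 and 12.7 CPM untreated and 61.6, 57.8 and 61.9 CPM recovered. ID3-KO libraries had 4.79, 4.31 and 4.99 CPM untreated and 64.2, 55.6 and 57.3 CPM recovered. The knockout started 2.75-fold lower and the genotypes overlapped after recovery. The log2 fold changes were 2.25 ± 0.052 in WT and 3.65 ± 0.092 in ID3-KO cells.

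The same order was measured in U2OS cells. WT libraries had 18.9, 17.9 and 16.7 CPM untreated and 83.5, 87.6 and 89.3 CPM treated. ID3-KO libraries had 6.84, 6.88 and 7.48 CPM untreated and 78.0, 72.1 and 74.0 CPM treated. RPLP0P2 rose in WT cells by 2.28 ± 0.081 (edgeR, adjusted p = 1.4e-06) and in ID3-KO cells by 3.40 ± 0.060 (adjusted p = 6.7e-22) on the log2 scale. The untreated knockout was lower by a log2 difference of -1.34 ± 0.088 (adjusted p = 1.2e-04), and the interaction was 1.13 ± 0.095 (edgeR, adjusted p = 1.9e-05).

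The parent gene RPLP0 was counted at 1979 to 3374 CPM and did not follow the pseudogene. Its log2 change with drug was between -0.32 and -0.04 in the 4 treatment comparisons, and its interaction was 0.15 ± 0.069 in AID-DIvA cells (edgeR, adjusted p = 0.42) and 0.16 ± 0.15 in U2OS cells (adjusted p = 0.70). The highest RPLP0 level, 3374 CPM, was that of U2OS WT untreated replicate 1, where RPLP0P2 stood at 18.9 CPM. Reads of both genes could still be split by the aligner where they differ little, so the RPLP0P2 level is less certain than those of the other 5 genes.

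**Figure D2:**
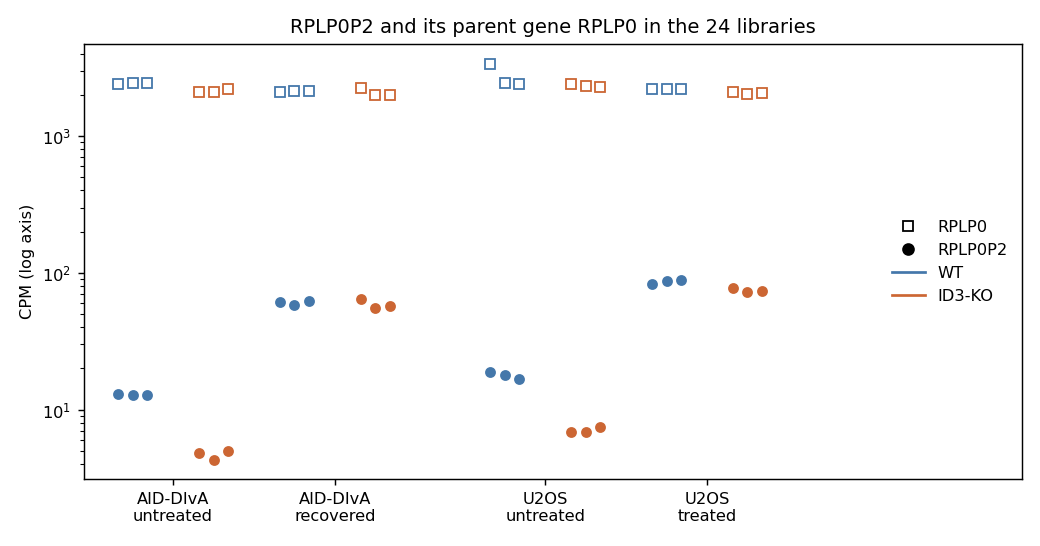
CPM on a log axis of RPLP0P2 (filled circles) and RPLP0 (open squares) in each of the 24 libraries, coloured by genotype. RPLP0 stays between 1979 and 3374 CPM while RPLP0P2 goes from 4.31–18.9 CPM in untreated libraries to 55.6–89.3 CPM with mocetinostat.

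**Figure D3:**
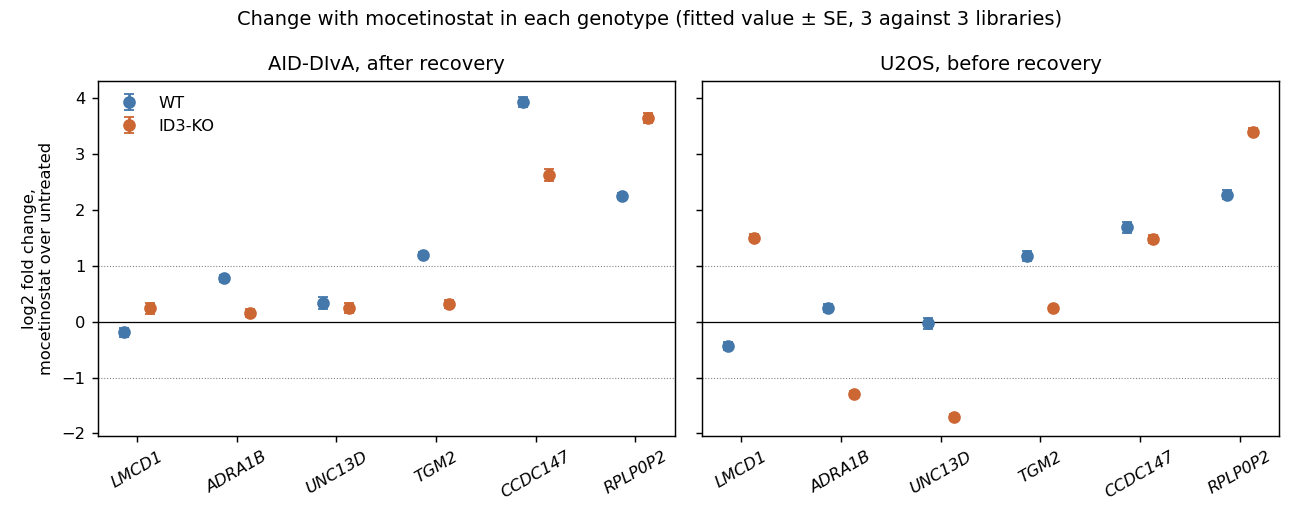
Fitted log2 fold change with mocetinostat for each gene in WT (blue) and ID3-KO (orange) cells, with SE, after recovery in AID-DIvA (left) and before it in U2OS (right); dotted lines mark the log2 threshold of 1. In U2OS LMCD1, ADRA1B and UNC13D the genotypes lie on different sides of 0 or far apart, while in AID-DIvA the same 3 genes lie between -0.19 and 0.78.

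Counts over the 6 genes were read against all genes. A gene was called in a treatment or genotype comparison at an adjusted p below 0.05 with a log2 difference beyond 1, and in an interaction at an adjusted p below 0.05. In treated U2OS cells TGM2, CCDC147 and RPLP0P2, taken as not chosen there, were called in WT, where 18.6% of all genes were, and CCDC147 and RPLP0P2 in ID3-KO cells, where 20.3% were. Among untreated cells all 3 of LMCD1, ADRA1B and UNC13D were called in AID-DIvA, against 4.58% of all genes, and 2 of TGM2, CCDC147 and RPLP0P2 in U2OS, against 4.26% (878 genes, and 563 to 1180 with 1 library left out). In the AID-DIvA interaction, which called 1.21% of all genes, 1 of LMCD1, ADRA1B and UNC13D was called. The 258 genes called there became 122 without WT untreated replicate 1. All 6 genes passed the filter on low counts in every comparison. In the U2OS interaction, which called 2.15%, 2 of TGM2, CCDC147 and RPLP0P2 were. That share rests on single libraries: the 488 genes called became 257 without ID3-KO untreated replicate 1 and 2091 without WT untreated replicate 1, while the interaction stayed between -0.99 and -0.88 for TGM2 and between 1.08 and 1.18 for RPLP0P2 with any 1 library left out. With drug and recovery, 7.38% of all genes were called in WT and 7.46% in ID3-KO AID-DIvA cells, and the log2 changes of LMCD1, ADRA1B and UNC13D there, from -0.19 to 0.78, lay within the fold threshold.

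Between untreated cells, the knockout was above WT in ADRA1B, UNC13D, TGM2 and CCDC147 and below it in LMCD1 and RPLP0P2 in both sets, and the ranges of the genotypes did not overlap in any of the 6. Such separation was common: the ranges of the genotypes did not overlap in 46.7% of all genes tested in AID-DIvA and 40.4% in U2OS cells, and in 25.8% they were apart in the same direction in both sets. With drug the mean ratios in the AID-DIvA set ran from 1.01-fold for TGM2 and 1.02-fold for RPLP0P2 to 9.95-fold for UNC13D. That of UNC13D was 10.4-fold before the drug, and its interaction there did not pass. In U2OS cells they ran from 1.16-fold for RPLP0P2 to 2.42-fold for UNC13D, and TGM2 went from 1.37-fold above to 1.41-fold below WT. The untreated libraries enter both the gap and the interaction, and the genes were chosen by the interaction, so the opposite signs of these quantities are not independent of each other.

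**Figure D4:**
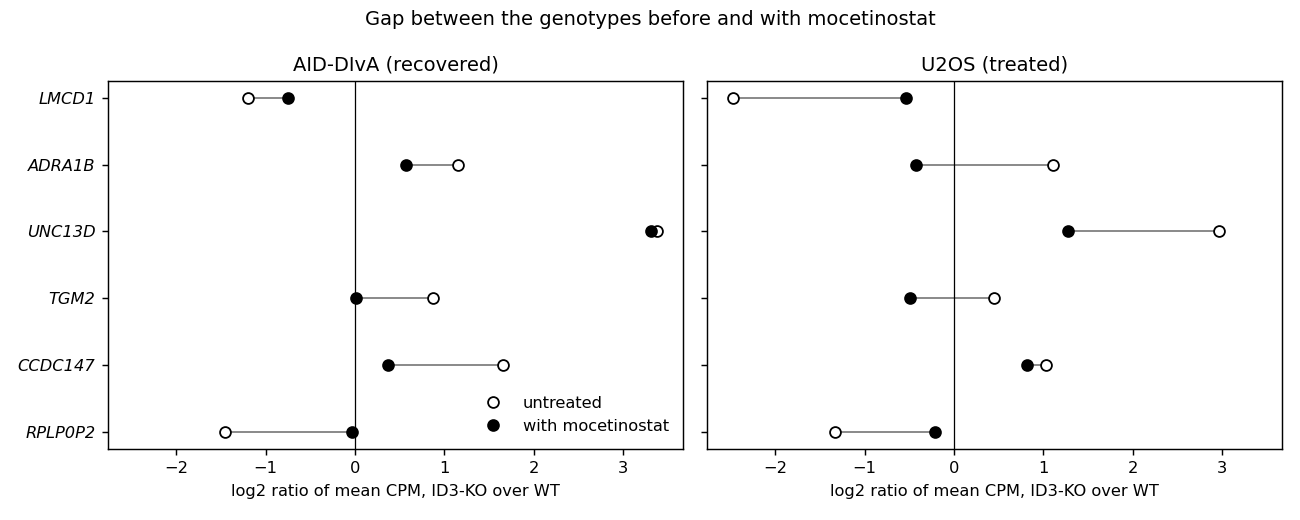
Log2 ratio of mean CPM, ID3-KO over WT, in untreated cells (open circles) and with mocetinostat (filled circles), for AID-DIvA recovered (left) and U2OS treated (right) cells; 0 means equal genotypes. TGM2 moves from 0.87 to 0.01 in AID-DIvA and from 0.45 to -0.50 in U2OS, and UNC13D moves from 3.38 to 3.32 and from 2.96 to 1.28.

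Across the 8 groups, the order of levels differed by gene. LMCD1 was lowest in AID-DIvA ID3-KO untreated cells (10.8 CPM) and highest in U2OS WT untreated cells (87.7 CPM), and only its 2 lowest groups overlapped their neighbour. For CCDC147 the 2 lowest groups, untreated WT cells of both sets at 3.84 and 3.89 CPM, did not differ beyond their spread, and the recovered AID-DIvA groups lay above all U2OS groups. RPLP0P2 was at 55.6 CPM or more in every library with drug and at 18.9 CPM or less in every one without. ADRA1B in recovered WT AID-DIvA cells overlapped treated WT U2OS cells, and ADRA1B in recovered ID3-KO AID-DIvA cells overlapped its highest group, untreated ID3-KO U2OS cells. The 4 WT groups of UNC13D had means of 10.3 to 12.8 CPM, below every ID3-KO group. TGM2 was lowest in untreated WT AID-DIvA cells (116 CPM) and highest in treated WT U2OS cells (485 CPM), and its recovered AID-DIvA groups overlapped each other and the untreated ID3-KO U2OS group.

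Each gene was set beside a list of genes of its own pathway. Of 14 LIM domain and GATA genes tested beside LMCD1 in the U2OS interaction, 1 passed, where 2.15% of all genes did. That share rests on single libraries, as given above. The gene was CSRP2, a cysteine and glycine-rich LIM protein, at 0.46 ± 0.11 (edgeR, adjusted p = 0.045), close to the threshold. Its log2 change was 0.30 in ID3-KO and -0.16 in WT cells, both under the fold threshold. In AID-DIvA the nearest was CSRP1 at -0.32 ± 0.077 (adjusted p = 0.055). In treated U2OS cells of either genotype 3 of 14 rose and 2 fell, where 13.6% of all genes rose and 5.06% fell in WT and 14.6% and 5.77% in ID3-KO cells. The median log2 change of the 14 was -0.11 in WT and 0.22 in ID3-KO cells, and that of all genes was 0.0058 and 0.00086. TES, another LIM protein, rose by 5.02 in WT and 3.92 in ID3-KO cells, and GATA6, the factor that LMCD1 represses, rose by 2.57 ± 0.32 (edgeR, adjusted p = 3.5e-04) and 1.21 ± 0.30 (adjusted p = 0.0011). GATA6 was at most 0.632 CPM in any group mean, and TES at most 2.27 CPM. After recovery GATA6 was lower in ID3-KO cells by a log2 change of -1.12 ± 0.37 (adjusted p = 0.036), and it was not tested in recovered WT cells. The GATA6 interaction did not pass in U2OS (-1.35 ± 0.43, edgeR, adjusted p = 0.16) or AID-DIvA cells (-1.02 ± 0.68, adjusted p = 0.60). A link between LMCD1 and GATA6 was not tested. CSRP3 rose by 1.44 in WT and 1.63 in ID3-KO recovered cells.

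Of 13 adrenergic receptor and Gq pathway genes tested in the U2OS interaction, 1 passed, where 2.15% of all genes did. The gene was PLCB2, a phospholipase C, at -0.33 ± 0.079 (edgeR, adjusted p = 0.046), close to the threshold. It fell with drug by 1.53 on the log2 scale in ID3-KO and by 1.19 in WT U2OS cells. In treated U2OS cells 6 of 13 genes rose and 1 fell in WT, and 5 rose and 1 fell in the knockout, with medians of 0.67 and 0.74, against 13.6% and 14.6% of all genes that rose and 5.06% and 5.77% that fell. The receptors ADRA2B, ADRA1D and ADRA2A rose by 2.54, 2.80 and 2.21 in WT and by 3.39, 1.82 and 2.11 in ID3-KO cells. GNA15, a Gq-class G protein, rose by 3.18 and 3.54. ADRA1D, ADRA2A and GNA15 had group means of at most 0.308, 0.538 and 0.675 CPM, so these folds rest on few counts. ADRA1B itself lay lower in the treated knockout. That value is part of the contrast that chose it, so it cannot set ADRA1B apart from the other receptors.

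Among 15 genes of the UNC13 family and granule exocytosis, 1 passed in the U2OS interaction, where 2.15% of all genes did. The gene was STX11, a syntaxin of cytotoxic granule release, at -0.89 ± 0.18 (edgeR, adjusted p = 0.021). STX11 rose in both genotypes, by 2.98 in WT and 2.09 in ID3-KO cells. Its interaction in AID-DIvA was -0.67 ± 0.21 (adjusted p = 0.16). Before the drug STX11 was 1.06 higher in ID3-KO than in WT AID-DIvA cells (adjusted p = 1.5e-05) and 0.99 higher in U2OS cells (adjusted p = 0.012, under the fold threshold). SYTL1, a synaptotagmin-like protein that binds RAB27A, was lower in the untreated knockout by -2.37 in AID-DIvA (adjusted p = 7.1e-11) and by -2.48 in U2OS cells (adjusted p = 4.0e-04). SYTL3 rose by 1.63 to 2.45 in all 4 treatment comparisons.

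Of 5 transglutaminase genes tested beside TGM2 in the U2OS interaction, 1 passed, where 2.15% of all genes did. The gene was TGM1, the keratinocyte enzyme, with an interaction of -0.95 ± 0.17 (edgeR, adjusted p = 0.0075). It fell by 1.80 in ID3-KO cells (adjusted p = 1.1e-14) and differed by -0.85 in WT cells (adjusted p = 0.0026, under the fold threshold). TGM1 was higher in the untreated knockout of both sets, by 1.32 in AID-DIvA and 1.35 in U2OS cells. TGM5 rose in all 4 treatment comparisons, by 1.07 to 2.39, from group means of 0.211 to 0.683 CPM, with a U2OS interaction of 1.12 ± 0.37 (adjusted p = 0.17).

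Among 17 axoneme genes tested beside CCDC147 in U2OS cells, the smallest adjusted p of the interaction was 0.18, for DNAI2, a dynein intermediate chain, at 1.74 ± 0.58, with a group mean of at most 0.576 CPM. In treated U2OS cells 5 of 17 rose in WT and 4 of 16 in ID3-KO cells, against 13.6% and 14.6% of all genes, and the medians were 0.56 and 0.44. DNAI1 rose by 2.46 and 2.67 there, and by 1.33 and 1.06 after recovery. Of 13 stalk protein genes and RPLP0 pseudogenes listed, 7 were in the files and 4 were tested, and the smallest adjusted p of either interaction was 0.23, for RPLP2 at 0.23.

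**Figure D5:**
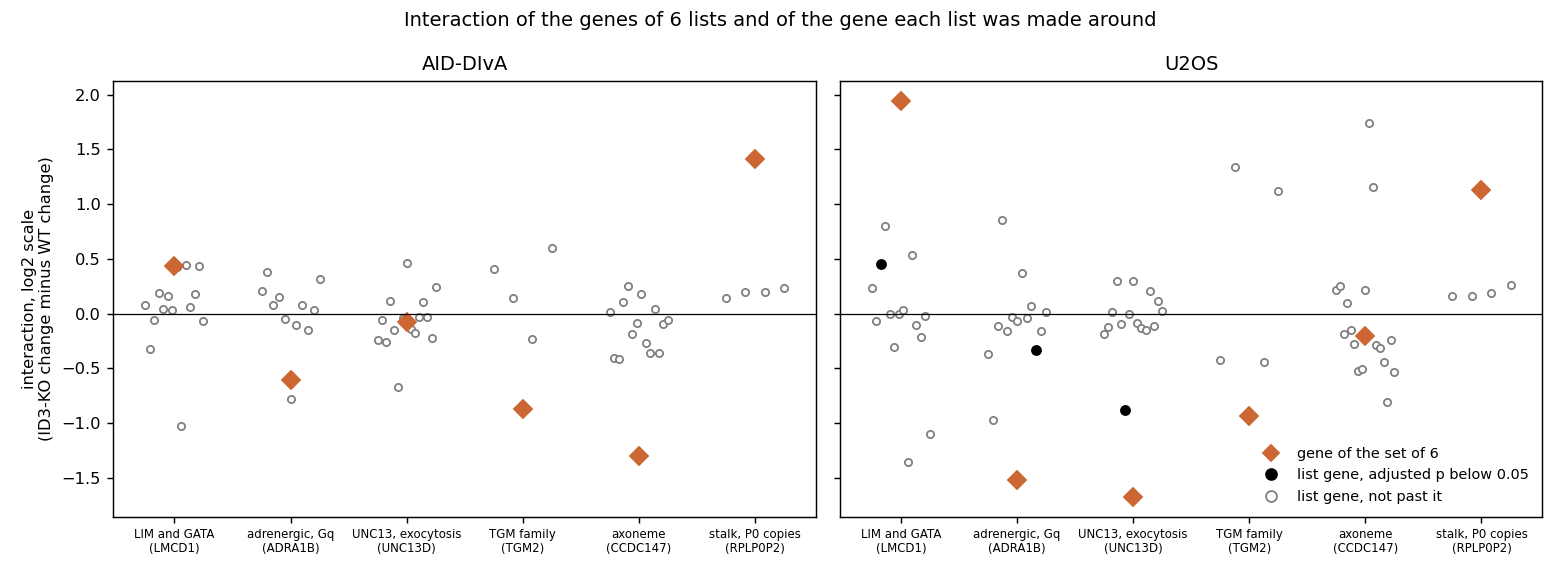
Interaction on the log2 scale (change in ID3-KO minus change in WT) for the genes of 6 lists (circles, filled where the adjusted p is below 0.05) and for the gene each list was made around (diamonds), in AID-DIvA (left) and U2OS (right). The filled circles are CSRP2, PLCB2, STX11 and TGM1, all in U2OS. TGM1 at -0.95 lies beside TGM2 at -0.94 there, though with drug TGM1 was lower and TGM2 higher in both genotypes. In AID-DIvA TGM1 was at 0.14 and TGM2 at -0.87.

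The genes whose pattern was most like each of the 6 were found by the correlation of log2 CPM over the 24 libraries after centring each set of 12, among 15038 genes. These correlations share libraries and treatment and are a description. They also include the libraries whose interaction chose each gene, so their signs among the 6 are not independent of that choice. Closest to LMCD1 were C7orf41 (r = 0.957), CX3CL1 (0.945) and DEPTOR (0.942), and closest to UNC13D were HOXB2 (0.989), STRA6 (0.988) and TRABD2B (0.978). ADRA1B was nearest to RP11-224O19.2 (0.912), KIF17 (0.911) and COL4A2 (0.903), and TGM2 to TNFAIP1 (0.908), FMNL1 (0.896) and SGSH (0.892). CCDC147 was nearest to MMP3 (0.972), COL17A1 (0.963) and RRAGD (0.955), and RPLP0P2 to SYP (0.984), TRAF1 (0.983) and EMR1 (0.983). Among the 6, ADRA1B and UNC13D ran together (r = 0.82) and LMCD1 ran against both (r = -0.79 and -0.86), while TGM2 and CCDC147 had r = 0.82.

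Overlapping genes took little of these counts. The libraries are stranded, and counts on the strand opposite to the gene were at most 40 in a library for ADRA1B and at most 15 for the other 5. LMCD1-AS1, on the opposite strand of LMCD1, had 24 to 165 counts in a library. GAPDHP40, opposite to ADRA1B, had 16 to 78, and snoU13, inside CCDC147, had 0 in every library. The GAPDHP40 counts lay almost all on the strand of ADRA1B and not on its own. In untreated ID3-KO AID-DIvA replicate 2 they were 77 and 1.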

How the data were processed

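RNA-seq of 24 libraries was analysed. The authors prepared stranded total RNA libraries, aligned the paired reads to hg19/GRCh37 with STAR and counted fragments per gene with featureCounts. The tool versions are not given in the sources used here, and the gene identifiers have another form than the annotation named in the methods. The deposited counts, from either strand and by strand, are neither normalized nor pooled, and the authors also deposited TPM. Groups were taken from the sample titles. The replicates are described as biological and as independent experiments, and p-values measure the spread between these libraries.

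The test was run on counts from either strand, using edgeR 4.0.16 under R 4.3.3 (TMM, filterByExpr, robust quasi-likelihood fit, Benjamini-Hochberg adjustment over all genes tested). Treatment and genotype comparisons used their own 6 libraries, and interactions the 12 libraries of a set. SE was taken as the size of the log2 value over the root of F. The 6 genes, the gene lists and the tests were chosen with earlier results of these data known. Besides the 6 genes, text names ID3, RPLP0, overlapping genes, per list up to 4 genes with the smallest interaction p and up to 4 with the largest called treatment change (of which the text gives the main ones), and the 3 genes most correlated with each of the 6 (log2 of CPM + 1, mean of at least 1 CPM per set). Alternatives were DESeq2 1.42.0, its size factors in edgeR, reverse-strand counts, no filter, all 4 groups in one fit, no fold threshold, the replicate number as a block, and each library left out. Simulated data, with the same spread set for all genes, were run through the AID-DIvA WT treatment fit and the AID-DIvA interaction fit only. No U2OS fit was tested in this way. Promoter windows are from RefSeq (GRCh38.p14); none were held for UNC13D, TGM2 and RPLP0P2.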

Additional observations from a re-analysis of the deposited data

Results flagged for a closer look

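Several responses differed between ID3-KO and WT cells by the test of the interaction itself. ADRA1B, chosen in U2OS cells, had an interaction of -0.61 on the log2 scale in AID-DIvA cells. TGM2 had -0.94 and RPLP0P2 had 1.13 in U2OS cells, and whether these values entered the choice of both genes is not known. Among the genes of the lists, PLCB2 (-0.33), STX11 (-0.89), TGM1 (-0.95) and CSRP2 (0.46) differed in U2OS cells. PLCB2 and CSRP2 were close to the threshold (edgeR, adjusted p = 0.046 and 0.045). None of these list genes passed in AID-DIvA cells, where TGM1 (0.14) and CSRP2 (-0.058) had the other sign. Of the bone markers, RUNX2, a bone transcription factor, differed by 0.53 in AID-DIvA cells (edgeR, adjusted p = 0.0093) and by 0.56 in U2OS cells (adjusted p = 0.045), and SPP1, osteopontin, by 0.71 in U2OS cells (adjusted p = 0.0017). No outlier test was run on the groups of 3 libraries, but each library was left out in turn. The 488 U2OS interactions then ran from 257 to 2091, highest without WT untreated replicate 1.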

How the results depend on the processing

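Dropping the fold threshold raised the counts of called genes to 9512 of 20289 tested in WT and 8156 of 20362 in ID3-KO AID-DIvA cells. In U2OS cells they became 10653 of 21797 in WT and 14794 of 21176 in ID3-KO cells. For untreated ID3-KO against WT cells they became 7502 of 20441 in AID-DIvA and 3132 of 20621 in U2OS. The counts over the 6 genes went from 3, 2 and 3 to 5, 4 and 5 in WT AID-DIvA, ID3-KO AID-DIvA and WT U2OS cells. They went from 5 to 6 in ID3-KO U2OS cells and in both comparisons of untreated genotypes. Calls were thus common among all genes at this setting, and the counts over the 6 are a description that includes genes in the set that chose them. Calls of the AID-DIvA interaction (258) became 462 with DESeq2 and 613 without a filter, and those of the U2OS interaction (488) became 858 and 775. Leaving out 1 library gave 122 to 297 AID-DIvA interactions, lowest without WT untreated replicate 1, and 257 to 2091 U2OS interactions, lowest without ID3-KO untreated replicate 1 and highest without WT untreated replicate 1. For untreated U2OS cells (878) it gave 563 to 1180, lowest and highest without the same 2 libraries. The cause was not tested.

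UNC13D changed sign when a library was left out in the contrasts where it was near 0: from -0.082 to 0.043 with drug in WT U2OS cells and from -0.23 to 0.014 in the AID-DIvA interaction. Of 312 values of the 6 genes under other settings, 302 kept their direction and side of the threshold and 10 came past it. All of the 10 but the AID-DIvA interaction of LMCD1 came from dropping the fold threshold. That interaction came past it without the filter on low counts. Without a fold threshold a call can only be gained. Of 360 values without 1 library, 355 kept both.

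With the replicate number as a replicate block, 157 AID-DIvA and 393 U2OS interactions were called. Correlations of same-numbered libraries ran from -0.46 to 0.39, and no comparison had all its pairs above 0.1, so the numbers were not treated as pairing the samples. No call among the 6 genes changed with the block.

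At 37878751 counts or more per library the 6 genes rest on at least 160 counts each, and low genes of the lists are limited by counting.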
